A study of Mus musculus with 18 samples.

Results

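Macrophage lineage transcription factors were followed as a set of 9 genes chosen by symbol: Spi1, Cebpa, Cebpb, Irf8, Maf, Runx1, Mitf, Tfec and Bhlhe40. Of these, 7 were analysed among 18204 listed genes, and all 7 were among the 16383 genes that passed a filter on low values. Maf and Tfec were not found by symbol among the listed genes and so were not analysed here. The cells were J774.1, a mouse macrophage line derived from a tumour, either wildtype or Ctbp1/2 dKO, in which Cas9 and guide pairs had been used to disrupt both Ctbp1 and Ctbp2 (Ctbp1-/-, Ctbp2-/-). CTBP1 and CTBP2 are corepressors that bind NADH and are recruited to DNA by transcription factors. Each genotype was treated for 4 h with vehicle (PBS/DMSO), 1.5 mM MTOB, a keto acid that binds the catalytic pocket of CTBPs, or 0.25 mM 4-Cl-HIPP, an oxime acid that binds the same pocket. This gave 6 groups of 3 samples, 18 in all, measured by bulk RNA sequencing. The question was whether loss of CTBPs altered the RNA of factors that set macrophage identity.

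PU.1, encoded by Spi1, opens chromatin at macrophage enhancers and does so together with C/EBP factors, RUNX1 and IRF8. MITF and TFEC are basic helix-loop-helix leucine zipper factors that drive lysosomal and osteoclast genes, and BHLHE40 is a basic helix-loop-helix repressor that binds E-boxes and is known for its role in macrophage proliferation and cytokine control. MAF opposes self-renewal of macrophages.

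The unit is TPM, a length-corrected transcript level that is brought to the same total in each sample, and the depth of sequencing is therefore unknown. Differences were tested by fitting limma to log2(TPM + 1) of all 16383 genes. A gene passed the test at a Benjamini-Hochberg-adjusted p below 0.05, and was differentially expressed if its fold change on that scale was also above 1.5. Such differences are given as log2 values and understate the change of genes with low TPM. The cells had been grown out from single cells and selected by genotyping. Which clone gave which sample is not given in the sources used here, so clone and genotype cannot be told apart. The study's methods name biological triplicates, but neither they nor the labels say whether these came from separate cultures. The p-values then measure only the spread between these samples. In bulk RNA, fewer cells of a type and less RNA per cell cannot be told apart.

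The targeted gene Ctbp1 had 170.1 to 238 TPM in the 9 wildtype samples and 19.7 to 31.5 TPM in the 9 dKO samples. Ctbp2 had 87.8 to 96.9 TPM in wildtype and 68.5 to 81.9 TPM in dKO samples. RNA of both was lower in dKO cells over all treatments, Ctbp1 by far the more, with a log2 difference of -3.03 (SE 0.07). These RNA levels do not measure the proteins, and the study reports loss of CTBP1 and CTBP2 protein by western blot. All 9 listed macrophage markers were above 1 TPM in every sample, but their levels differed widely. Csf1r had 612 to 942 TPM, Cd68 542 to 703 TPM and Lyz2 465 to 687 TPM. Msr1, by contrast, had 4.82 to 130.6 TPM, Adgre1 6.70 to 107 TPM and Itgam 11.3 to 65.3 TPM. Over all treatments, 5 of the 9 were lower in dKO cells by the test, against 9.27% of all genes. Another 3, among them Itgam, were higher, against 13.1%. Summed markers of T cells did not exceed 9.07 TPM in any sample, and those of B cells, neutrophils, dendritic cells, erythroid cells, mast cells and melanocytes, and fibroblasts did not exceed 3.60 TPM.

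Levels of the 7 factors spanned a wide range. Spi1 was the most abundant with a mean of 246 TPM over all samples, above 96.2% of the tested genes. Cebpb followed with 82.9 TPM, Irf8 with 34.7 TPM, Runx1 with 22.7 TPM, Mitf with 17.9 TPM and Bhlhe40 with 12.0 TPM. Cebpa was close to the limit of detection with 0.428 TPM and a mean normalized count, as the authors computed it, of 3.69. The ratio of the highest to the lowest sample was 8.96 for Bhlhe40, 2.81 for Irf8, 2.79 for Mitf, 2.00 for Cebpb, 1.60 for Runx1 and 1.50 for Spi1. Of the 6 factors never listed at 0, the most abundant thus varied least and Bhlhe40 most.

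**Figure D1:**
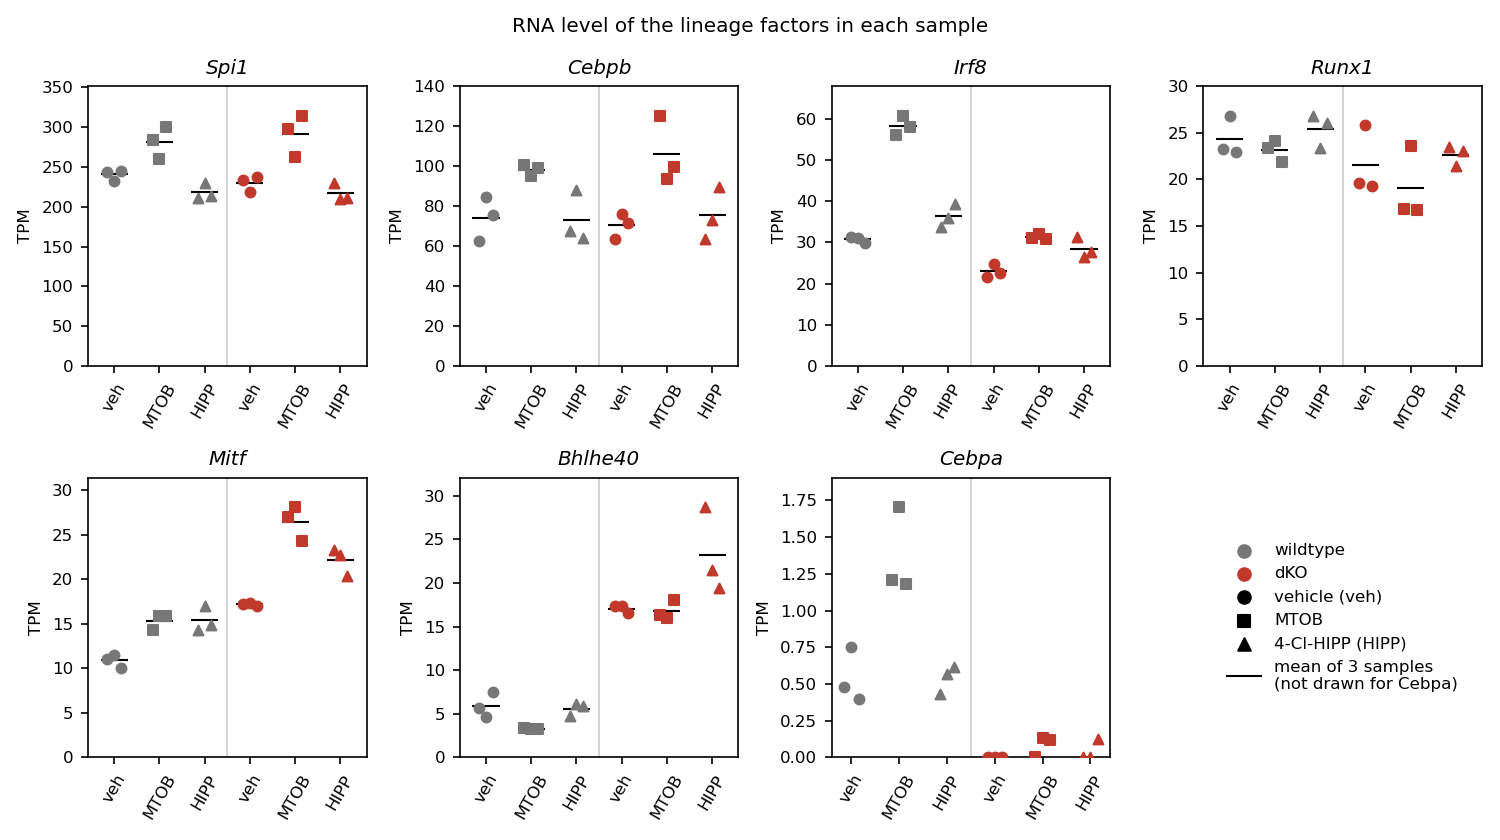
TPM of the 7 analysed factors in each of the 18 samples, by genotype and treatment; points are samples and lines are means of 3 samples, not drawn for Cebpa, which is listed at 0 in some samples. Bhlhe40 lies between 16.0 and 28.7 TPM in dKO and between 3.20 and 7.48 TPM in wildtype samples, whereas Spi1 lies between 209 and 314 TPM in both.

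Loss of CTBPs was first compared under vehicle. Of the 7 factors, 4 passed the test, against 10.7% of all tested genes: Bhlhe40 and Mitf were higher in dKO than in wildtype cells, against 7.01% of genes that were higher, and Irf8 and Cebpa were lower, against 3.72%. The same 4 had samples that did not overlap between genotypes, against 26.1% of all genes. Of these, 3 were differentially expressed (Bhlhe40, Mitf and Cebpa), against 4.83% of all genes. Spi1, Cebpb and Runx1 did not pass. The median log2 difference was -0.07 over the 7 factors and 0.01 over all tested genes. As the factors were chosen with earlier results of these data known, the shares beside the counts are a description and no test of the set.

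Bhlhe40 (ENSMUSG00000030103) occupies bases 108636626 to 108644502 of chromosome 6 (GRCm39, plus strand). Under vehicle, it had 5.71, 4.58 and 7.48 TPM in wildtype samples and 17.3, 17.3 and 16.5 TPM in dKO samples. The groups did not overlap, and the means were 5.93 ± 1.46 TPM (SD, n = 3) and 17.1 ± 0.449 TPM (SD, n = 3). This was a 2.88-fold ratio of means and a log2 difference of 1.40 (SE 0.14) with an adjusted p of 6.11e-06 (limma, Benjamini-Hochberg). With MTOB, wildtype samples had 3.36, 3.30 and 3.20 TPM and dKO samples had 16.3, 16.0 and 18.01 TPM, a 5.11-fold ratio of means and a log2 difference of 2.05 (SE 0.14, adjusted p = 9.67e-08, limma). With 4-Cl-HIPP, wildtype samples had 4.78, 6.07 and 5.93 TPM and dKO samples had 28.7, 21.5 and 19.4 TPM, a 4.14-fold ratio and a log2 difference of 1.86 (SE 0.14, adjusted p = 2.81e-07, limma). Bhlhe40 was therefore higher in every dKO sample than in any wildtype sample. Averaged over treatments, the log2 difference was 1.77 (SE 0.08, adjusted p = 2.27e-10, limma). The gene overlaps the antisense lncRNA 0610040F04Rik over 2126 bases, and the library was not stranded, so reads from the shared part cannot be assigned to a strand. The spans of Cebpa, Cebpb, Mitf, Runx1 and Spi1 also overlap genes on the other strand, the longest being Gm26626 in Runx1 with 7292 bases.

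Mitf (ENSMUSG00000035158) occupies bases 97783950 to 97998323 of chromosome 6 (plus strand). Under vehicle, it had 11.1, 11.5 and 10.1 TPM in wildtype samples and 17.2, 17.3 and 17.0 TPM in dKO samples. All 3 dKO samples were above all 3 wildtype samples, with a 1.58-fold ratio of means and a log2 difference of 0.61 (limma with Benjamini-Hochberg adjustment, SE 0.08, adjusted p = 4.64e-05). With MTOB, wildtype samples had 14.3, 15.9 and 15.9 TPM and dKO samples had 26.9, 28.1 and 24.3 TPM, a log2 difference of 0.74 (SE 0.08, adjusted p = 6.35e-06, limma). With 4-Cl-HIPP, wildtype samples had 14.3, 17.0 and 14.9 TPM and dKO samples had 23.2, 22.8 and 20.4 TPM, a log2 difference of 0.50 (SE 0.08, adjusted p = 0.000362, limma). Within each treatment the genotypes did not overlap, but over all treatments they met, since the highest wildtype and the lowest dKO sample both had 17.0 TPM. Averaged over treatments, the log2 difference was 0.62 (SE 0.04, adjusted p = 3.31e-08, limma).

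Irf8 (ENSMUSG00000041515) occupies bases 121463096 to 121485659 of chromosome 8 (plus strand). Under vehicle, it had 31.3, 31.1 and 29.8 TPM in wildtype samples and 21.6, 24.7 and 22.5 TPM in dKO samples. The dKO samples were all below the wildtype samples, with a log2 difference of -0.41 (limma with Benjamini-Hochberg adjustment, SE 0.07, adjusted p = 0.000838) and a 1.34-fold ratio of means. With MTOB, wildtype samples had 56.1, 60.8 and 58.0 TPM and dKO samples had 31.0, 32.1 and 30.8 TPM. Here, again, every dKO sample was below every wildtype sample, with a 1.86-fold ratio of means and a log2 difference of -0.88 (SE 0.07, adjusted p = 3.33e-07, limma). With 4-Cl-HIPP, wildtype samples had 33.8, 35.9 and 39.4 TPM and dKO samples had 31.3, 26.4 and 27.6 TPM, with a log2 difference of -0.34 (SE 0.07, adjusted p = 0.00359, limma). This last difference did not pass in a fit of these groups alone (adjusted p = 0.0868, limma). Averaged over treatments, the log2 difference was -0.54 (SE 0.04, adjusted p = 4.44e-08, limma).

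Cebpa (ENSMUSG00000034957) occupies bases 34818718 to 34821353 of chromosome 7 (plus strand) and encodes C/EBPα, which acts in myeloid progenitors. Under vehicle, it had 0.477, 0.751 and 0.397 TPM in wildtype samples and was listed at 0 in all 3 dKO samples. With MTOB, wildtype samples had 1.21, 1.70 and 1.18 TPM, while dKO samples were listed at 0, 0.134 and 0.118 TPM. With 4-Cl-HIPP, wildtype samples had 0.430, 0.570 and 0.614 TPM, while dKO samples were listed at 0, 0 and 0.122 TPM. Every wildtype sample was above every dKO sample, and the log2 difference was -0.62 under vehicle (SE 0.13, adjusted p = 0.00548, limma), -1.12 with MTOB (SE 0.13, adjusted p = 2.67e-05, limma) and -0.56 with 4-Cl-HIPP (SE 0.13, adjusted p = 0.0108, limma). At such levels the size of these differences depends on the pseudocount, and no fold is given. The overlapping antisense lncRNA Gm45091 had a mean of 0.0653 TPM in wildtype and 0.0694 TPM in dKO cells.

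Promoters of the factors whose RNA differed between genotypes are shown because each was compared with motifs of members of the set and of ZEB factors. A RefSeq table on the build GRCm38.p6 held 250 bases before each start for 5 of the 7 factors, in 9 windows. Spi1 and Bhlhe40 have no entry. Windows were placed in GRCm39 by exact match and are printed up to the first annotated start. The motifs searched on both strands were the E-box CACGTG of MITF and BHLHE40, the E-box CACCTG of ZEB factors, TGTGGT of RUNX factors, GAGGAAGT of PU.1, TTNCNNAA of C/EBP factors and the ETS-IRF composite element. GAGGAAGT and the composite element share the bases GGAA. Capitals mark matches.
Mitf promoter, chr6:97783769-97783949, plus strand: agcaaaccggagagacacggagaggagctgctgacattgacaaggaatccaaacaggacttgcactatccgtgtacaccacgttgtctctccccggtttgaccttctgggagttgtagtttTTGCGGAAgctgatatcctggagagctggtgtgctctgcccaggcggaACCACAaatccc
Irf8 promoter, chr8:121462847-121463095, plus strand: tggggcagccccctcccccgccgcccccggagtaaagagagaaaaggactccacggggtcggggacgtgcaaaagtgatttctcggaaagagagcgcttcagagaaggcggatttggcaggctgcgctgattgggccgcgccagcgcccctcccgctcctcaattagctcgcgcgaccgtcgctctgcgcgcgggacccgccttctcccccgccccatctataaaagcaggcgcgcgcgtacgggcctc
Cebpa promoter, chr7:34818468-34818717, plus strand: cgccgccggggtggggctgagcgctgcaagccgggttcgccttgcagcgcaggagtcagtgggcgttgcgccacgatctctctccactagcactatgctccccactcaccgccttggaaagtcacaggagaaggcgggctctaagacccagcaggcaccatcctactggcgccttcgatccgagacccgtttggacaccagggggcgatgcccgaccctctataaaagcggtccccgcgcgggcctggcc
The Mitf window held TTGCGGAA, which matches the C/EBP motif on both strands, and ACCACA, the RUNX motif on the other strand. The printed Irf8 and Cebpa windows held no match. Over 32851 windows of 250 bases, 36.8% held the C/EBP motif, 14.0% the RUNX motif, 17.2% CACCTG, 6.02% CACGTG, 2.44% GAGGAAGT and 2.30% the composite element. Of the other windows of members, a second start of Mitf, a second start of Irf8 and a start of Runx1 held CACCTG, and that start of Runx1 also held CACGTG. These matches are letters in a window and say nothing about binding.

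The 3 factors that did not pass in any treatment were Spi1, Cebpb and Runx1. Spi1 (ENSMUSG00000002111, chromosome 2, 90912562 to 90946101, plus strand) had 244, 233 and 245 TPM in wildtype and 234, 218 and 238 TPM in dKO samples under vehicle. The ranges overlapped and the log2 difference was -0.07 (SE 0.07, adjusted p = 0.673, limma). With MTOB it was 0.05 (SE 0.07) and with 4-Cl-HIPP -0.01 (SE 0.07), and neither passed. Cebpb (ENSMUSG00000056501, chromosome 2, 167530835 to 167532338, plus strand), which encodes C/EBPβ, a factor of inflammatory activation, had 62.5, 84.5 and 75.3 TPM in wildtype and 63.7, 76.2 and 71.3 TPM in dKO samples. Here, too, the ranges overlapped, with log2 differences of -0.07 (SE 0.15) under vehicle, 0.10 (SE 0.15) with MTOB and 0.05 (SE 0.15) with 4-Cl-HIPP. Cebpb overlaps Peds1 on the other strand over 908 bases, and Peds1 had means of 40.5 TPM in wildtype and 40.2 TPM in dKO cells.

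Runx1 (ENSMUSG00000022952, chromosome 16, 92398354 to 92623037, minus strand) encodes the DNA-binding subunit of core binding factor. Under vehicle, it had 23.3, 26.8 and 23.0 TPM in wildtype and 19.6, 25.8 and 19.3 TPM in dKO samples. With MTOB, wildtype samples had 23.4, 24.2 and 21.9 TPM and dKO samples had 16.8, 23.6 and 16.7 TPM. With 4-Cl-HIPP, wildtype samples had 26.8, 23.3 and 26.1 TPM and dKO samples had 23.5, 21.4 and 23.1 TPM. Under vehicle and with MTOB, replicate 2 of dKO stood above the other dKO samples and within the wildtype range of that treatment. Averaged over treatments, the log2 difference was -0.21 (limma with Benjamini-Hochberg adjustment, SE 0.07, adjusted p = 0.0510), just short of the threshold. Without dKO vehicle replicate 2 the adjusted p was 0.0120, without dKO MTOB replicate 2 it was 0.00468, and without wildtype 4-Cl-HIPP replicate 2 it was 0.0461. Runx1 also passed with a pseudocount of 0.1 (adjusted p = 0.0440), with genes of a mean of at least 1 TPM (adjusted p = 0.0341), under median-of-ratios scaling (adjusted p = 0.0304) and under quantile normalization (adjusted p = 0.0178), all in limma. Under MTOB alone, the log2 difference of -0.29 (SE 0.12, adjusted p = 0.182, limma) passed only when dKO MTOB replicate 2 was left out (adjusted p = 0.0179).

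The same 4 factors passed with MTOB, against 11.2% of all genes, and with 4-Cl-HIPP, against 10.2%, and each had the same direction as under vehicle. These were also the 4 factors whose genotypes did not overlap, against 23.5% of all genes with MTOB and 25.2% with 4-Cl-HIPP. The 3 comparisons use different samples but share the estimate of the spread from the fit over all 18 samples. Clone and genotype cannot be told apart in any of them, so they are no independent support for each other. With MTOB all 4 were differentially expressed, against 4.95% of all genes, but with 4-Cl-HIPP only Bhlhe40 was, against 4.72%. Averaged over treatments, 4 of 7 passed, against 22.4% of all genes, 2 of them higher (against 13.1%) and 2 lower (against 9.27%), and 3 were differentially expressed, against 5.2%. Only Bhlhe40 and Cebpa had 9 dKO samples that did not overlap the 9 wildtype samples, against 5.26% of all genes.

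**Figure D2:**
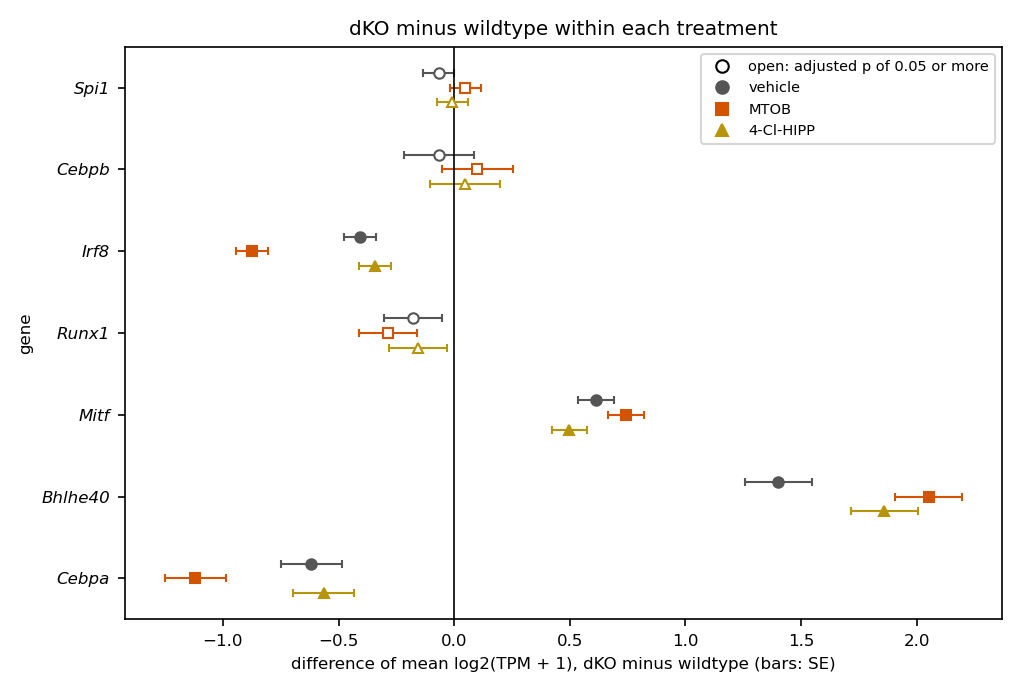
Log2 difference of dKO minus wildtype for each factor within each treatment, with bars that give the SE of the limma fit and open symbols for an adjusted p of 0.05 or more. Bhlhe40 (1.40 to 2.05) and Mitf (0.50 to 0.74) lie above 0 and Irf8 (-0.88 to -0.34) below 0 in all 3 treatments, while Spi1 lies within 0.07 of 0.

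The inhibitor comparisons asked how the factors responded to MTOB and 4-Cl-HIPP with and without CTBPs. Both inhibitors share the vehicle samples of a genotype, and their doses differed, so values are given side by side and the compounds are not compared with each other.

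With MTOB in wildtype cells, 4 of the 7 factors passed the test, against 7.26% of all genes, and 3 were differentially expressed, against 2.01%. Of these 4, 3 were higher, against 3.8% of all genes, and 1 was lower, against 3.46%. The samples of 6 factors did not overlap between MTOB and vehicle, against 22.6% of all genes. Irf8 rose from 30.7 ± 0.831 TPM to 58.3 ± 2.35 TPM (SD, n = 3 each), a 1.895-fold ratio and a log2 difference of 0.90 (limma with Benjamini-Hochberg adjustment, SE 0.07, adjusted p = 6.09e-07). Cebpa rose from 0.397 to 0.751 TPM across the vehicle samples to 1.18 to 1.70 TPM, a log2 difference of 0.62 (SE 0.13, adjusted p = 0.00904, limma). Mitf rose from 10.9 ± 0.759 TPM to 15.4 ± 0.910 TPM (SD, n = 3 each), a log2 difference of 0.46 (SE 0.08, adjusted p = 0.00129, limma). Bhlhe40 fell from 5.93 ± 1.46 TPM to 3.28 ± 0.0794 TPM (SD, n = 3 each), by a factor of 1.80 and a log2 difference of -0.67 (SE 0.14, adjusted p = 0.00901, limma). Bhlhe40 and Cebpa did not pass in a fit of these groups alone (adjusted p = 0.0983 and 0.0912, limma), and Cebpa did not pass with a pseudocount of 0.1 (adjusted p = 0.123, limma).

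Spi1 and Cebpb did not pass in wildtype cells with MTOB. Spi1 had 284, 260 and 299.7 TPM with MTOB, all above the 233 to 245 TPM of vehicle, and a log2 difference of 0.22 (SE 0.07, adjusted p = 0.0616, limma). Its adjusted p was 0.0335 without wildtype MTOB replicate 2. Cebpb had 100.5, 94.9 and 98.9 TPM with MTOB, again all above vehicle, and a log2 difference of 0.41 (SE 0.15, adjusted p = 0.139, limma). Runx1 differed by -0.07 (SE 0.12) on the log2 scale.

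In dKO cells with MTOB, 4 factors rose, against 6.58% of all genes that passed in either direction and 3.04% that were higher, and 1, Mitf, was differentially expressed, against 1.63%. These 4 did not overlap with vehicle, against 21% of all genes. Mitf went from 17.2 ± 0.198 TPM to 26.4 ± 1.92 TPM (SD, n = 3 each), a log2 difference of 0.59 (limma with Benjamini-Hochberg adjustment, SE 0.08, adjusted p = 0.000173). Irf8 went from 23.0 ± 1.56 TPM to 31.3 ± 0.684 TPM (SD, n = 3 each), a log2 difference of 0.43 (SE 0.07, adjusted p = 0.00111, limma). Irf8 in dKO cells with MTOB, at 30.8 to 32.1 TPM, overlapped the 29.8 to 31.3 TPM of wildtype cells under vehicle. Spi1 had 297, 262 and 314 TPM with MTOB, and its log2 difference was 0.34 (SE 0.07, adjusted p = 0.00593, limma). Cebpb had 125, 93.4 and 99.7 TPM and a log2 difference of 0.58 (SE 0.15, adjusted p = 0.0327, limma). The call of Cebpb was lost when any of several samples was omitted, with adjusted p of 0.0539 to 0.135 (limma) without, in turn, dKO vehicle replicates 1, 2 and 3 and dKO MTOB replicates 1 and 3. In a fit of these groups alone, neither Cebpb (adjusted p = 0.117, limma) nor Spi1 (adjusted p = 0.115, limma) passed. Bhlhe40 in dKO cells had 16.3, 16.0 and 18.01 TPM, which overlapped vehicle, and a log2 difference of -0.02 (SE 0.14).

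With 4-Cl-HIPP, Mitf was the only factor that passed in wildtype cells, against 0.366% of all genes, and 0 were differentially expressed, against 0.14%. The samples of 3 factors did not overlap with vehicle, against 12.6% of all genes. It had 14.3, 17.0 and 14.9 TPM, all above the 10.1 to 11.5 TPM of vehicle, and a log2 difference of 0.46 (limma with Benjamini-Hochberg adjustment, SE 0.08, adjusted p = 0.0141). Mitf no longer passed at an adjusted p of 0.0863 when wildtype vehicle replicate 3 was omitted, at 0.0803 when replicate 2 of the treated wildtype samples was omitted, and at 0.239 in a fit of these groups alone (limma). In dKO cells, 0 of 7 factors passed in limma, against 0.501% of all genes (0.153% with the fold threshold), and 3 had an unadjusted p below 0.05, against 8.47% of all genes. The samples of 3 factors did not overlap with vehicle, against 13.7% of all genes. With an unadjusted p below 0.05 were Mitf with a log2 difference of 0.35 (SE 0.08, adjusted p = 0.0646), Irf8 with 0.30 (SE 0.07, adjusted p = 0.0795) and Bhlhe40 with 0.40 (SE 0.14, adjusted p = 0.393). For Bhlhe40, the dKO samples with 4-Cl-HIPP (28.7, 21.5 and 19.4 TPM) were all above the dKO vehicle samples (17.3, 17.3 and 16.5 TPM). In wildtype cells Irf8 had a log2 difference of 0.23 (SE 0.07, adjusted p = 0.264, limma) and Spi1 of -0.14 (SE 0.07, adjusted p = 0.615, limma).

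**Figure D3:**
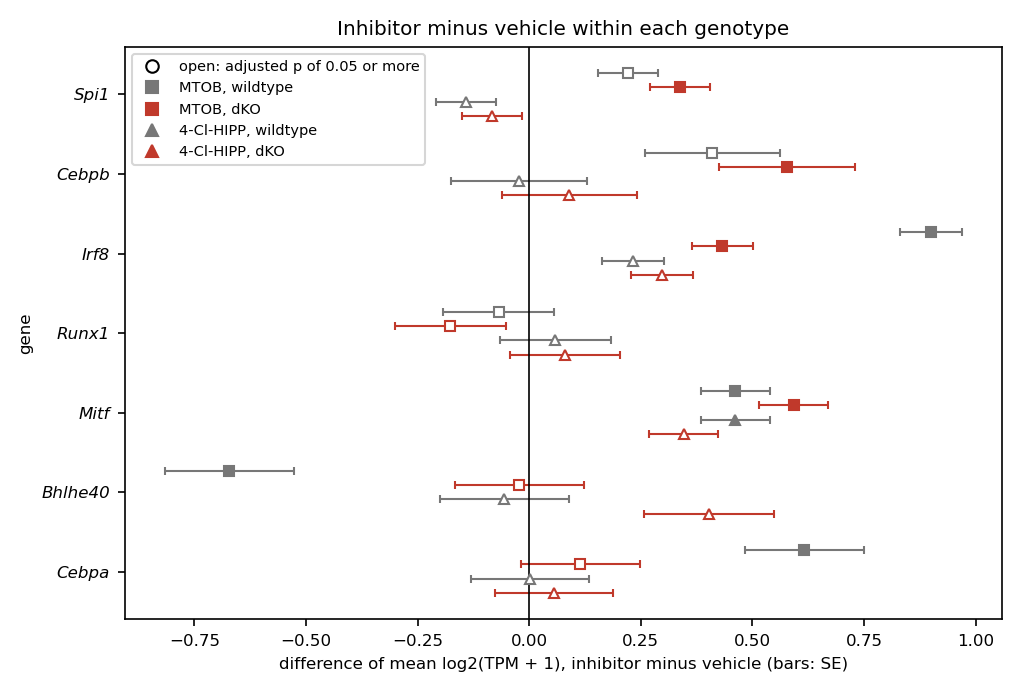
Log2 difference of each inhibitor against vehicle for each factor, in wildtype and in dKO cells, with bars that give the SE of the limma fit and open symbols for an adjusted p of 0.05 or more; MTOB and 4-Cl-HIPP were given at 1.5 mM and 0.25 mM. With MTOB, Irf8 had a log2 difference of 0.90 in wildtype and 0.43 in dKO cells, and Bhlhe40 of -0.67 and -0.02.

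Whether MTOB acted differently in the 2 genotypes was tested as the difference of its effects. In limma, 0 of 7 factors passed, against 0.0916% of all genes, and 3 had an unadjusted p below 0.05, against 6.89% of all genes. The MTOB effect in dKO minus that in wildtype was -0.47 on the log2 scale for Irf8 (SE 0.10, unadjusted p = 0.000257, adjusted p = 0.130, limma), 0.65 for Bhlhe40 (SE 0.20, unadjusted p = 0.00633, adjusted p = 0.494) and -0.50 for Cebpa (SE 0.19, unadjusted p = 0.0174, adjusted p = 0.630). Over the alternatives run, the adjusted p for Irf8 was 0.0806 to 0.319. For 4-Cl-HIPP, 0 of 7 passed in limma, against 0% of all genes, and 1, Bhlhe40, had an unadjusted p below 0.05, against 4.48% of all genes, with a difference of 0.46 (SE 0.20, unadjusted p = 0.0407). A difference in response between genotypes was thus not shown for any factor.

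The order of the 6 groups differed by factor. For Bhlhe40, the 3 dKO groups stood above the 3 wildtype groups, with 4-Cl-HIPP highest in dKO and MTOB lowest in wildtype. For Mitf, dKO cells with MTOB were highest, followed by dKO cells with 4-Cl-HIPP, while dKO cells under vehicle and wildtype cells with either inhibitor had means of 15.4 to 17.2 TPM, and wildtype cells under vehicle were lowest. For Irf8, wildtype cells with MTOB were highest and dKO cells under vehicle lowest, and 3 of the groups between them (dKO cells with MTOB, wildtype cells under vehicle and dKO cells with 4-Cl-HIPP) overlapped their neighbours. For Spi1 and Cebpb, the MTOB groups were above the others in both genotypes, and for Runx1 each group overlapped the next.

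Genes most like each factor over the 18 samples, by Pearson r of log2(TPM + 1) among 9717 genes with a mean of at least 5 TPM, are given as a description. Bhlhe40 was most like Ppm1j (r = 0.983) and Ptgs1 (r = 0.982), a prostaglandin synthase, with r within dKO samples of 0.742 and 0.572. Mitf was most like Ank (r = 0.972), a pyrophosphate transporter, and Pdgfb (r = 0.956), a growth factor, with r of 0.953 and 0.870 within wildtype and 0.914 and 0.945 within dKO samples. Cebpa was most like Uba1 (r = 0.963) and Adgre1 (r = 0.962), which encodes F4/80. Irf8 was most like Ppp1r9b (r = 0.938) and Agpat4 (r = 0.928). Spi1 was most like Psmd12 (r = 0.936), a proteasome subunit, and Cnbp (r = 0.9003), Cebpb was most like Eif1 (r = 0.892) and Hras (r = 0.887), and Runx1 was most like Hif1an (r = 0.836) and Phf20l1 (r = 0.824). The samples share 6 group means, which set much of these values, and for Uba1 the r within dKO samples was 0.109.

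To place the factors among genes they are known to act with, lists written by role were read from the same fit, for dKO against wildtype over all treatments. Of all tested genes, 13.1% were higher and 9.27% lower in this comparison. Since the lists were chosen with earlier results of these data known, counts set against these shares are a description and no test. Among other macrophage and myeloid transcription factors, 49 were tested, 17 were higher and 8 lower, with a median log2 difference of 0.01 against 0.01 for all genes. Lmo2, a bridging factor of blood progenitors, was lower (log2 -0.74, SE 0.04, adjusted p = 1.59e-09, limma), and Id2, an inhibitor of basic helix-loop-helix factors, Irf1, an interferon regulatory factor, Zeb2, an E-box repressor, and Nr4a1, an orphan nuclear receptor, were higher (log2 0.43, 0.75, 1.06 and 0.72). Zeb2 had a median of 29.7 TPM in wildtype and 61.2 TPM in dKO samples. Under vehicle alone, 8 of the 49 were higher and 5 lower, against 7.01% and 3.72% of all genes. With MTOB, 4 were higher and 7 lower in wildtype cells, against 3.8% and 3.46%, and 5 were higher and 7 lower in dKO cells, against 3.04% and 3.54%. With 4-Cl-HIPP, 0 passed in either genotype in limma, and 5 of 49 in wildtype and 6 of 49 in dKO cells had an unadjusted p below 0.05, against 8.19% and 8.47% of all genes.

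Macrophage identity genes, products that PU.1 and its partners control, moved in both directions. Of 33 tested, 16 were higher and 8 lower in dKO cells, with a median log2 difference of 0.13, and under vehicle 11 were higher and 6 lower, against 7.01% and 3.72% of all genes. Msr1, a scavenger receptor, had 57.5 to 130.6 TPM (median 87.1) in wildtype and 4.82 to 13.0 TPM (median 6.39) in dKO samples, a log2 difference of -3.43 (limma with Benjamini-Hochberg adjustment, SE 0.08, adjusted p = 2.02e-14). Cd14, the lipopolysaccharide co-receptor, had medians of 462 and 145 TPM (log2 -1.63, SE 0.04, adjusted p = 9.86e-14, limma). Cybb, a subunit of the phagocyte oxidase, had medians of 214 and 57.1 TPM, and Cx3cr1, a chemokine receptor, of 125 and 67.2 TPM. Lgals3, a galectin, was higher, with medians of 191 TPM in wildtype and 315 TPM in dKO cells. The 9 macrophage markers tested are part of these 33 genes and no further result. Of the 9, 3 were higher and 5 lower, with a median of -0.15, so they leaned the other way from the list as a whole. Among these, Adgre1 was lower (log2 -2.00, SE 0.10, adjusted p = 6.54e-10, limma), Mpeg1 was lower (log2 -0.37) and Itgam, the integrin CD11b, was higher (log2 1.64, SE 0.11, adjusted p = 9.89e-09, limma).

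**Figure D4:**
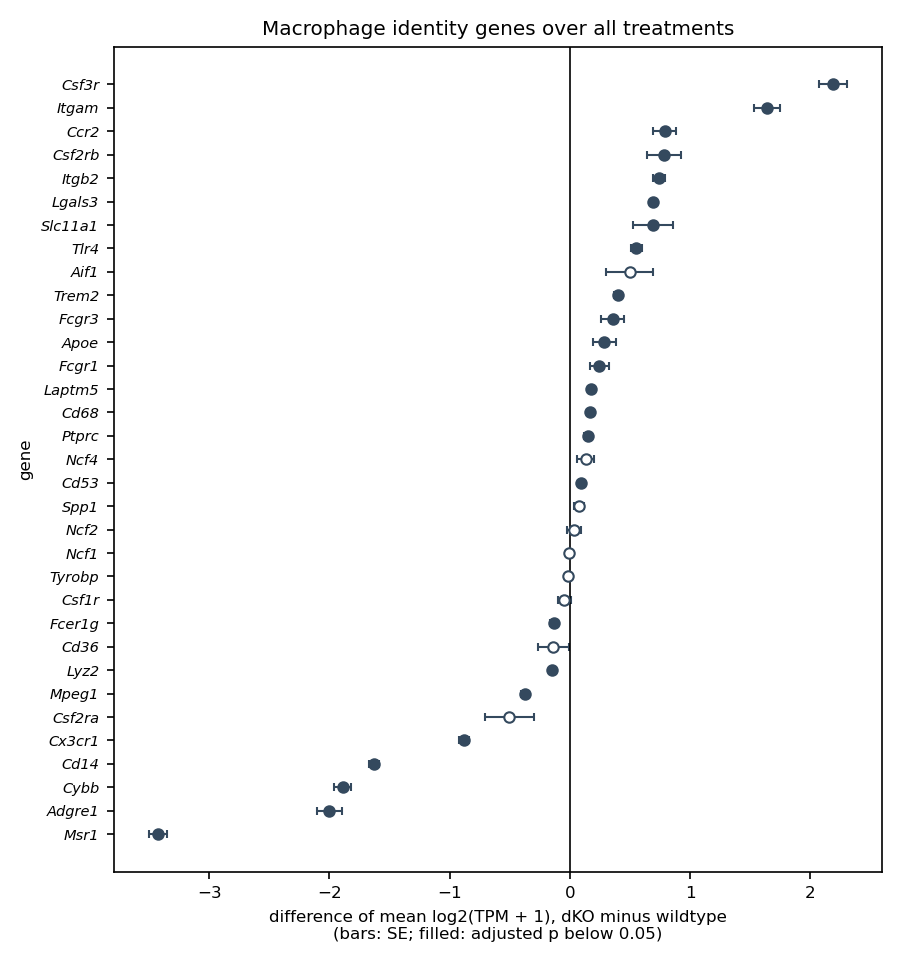
Log2 difference of dKO minus wildtype over all treatments for the 33 tested macrophage identity genes, ordered by size, with bars that give the SE of the limma fit and filled points for an adjusted p below 0.05. The genes spread to both sides of 0, from Msr1 (-3.43) to Csf3r (2.19).

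MITF and TFEC target and osteoclast genes, the group nearest to the role of Mitf, had 8 genes higher and 1 lower of 15 tested, with a median log2 difference of 0.15. Within treatments, 4 were higher and 2 lower under vehicle, 5 and 1 with MTOB, and 3 and 1 with 4-Cl-HIPP. Of all genes, 10.7%, 11.2% and 10.2% passed in either direction in these comparisons. Ocstamp, needed for osteoclast fusion, had 0 to 0.281 TPM in wildtype and 6.98 to 11.8 TPM in dKO samples (log2 3.18, SE 0.07, adjusted p = 3.19e-14, limma, Benjamini-Hochberg). Csf3r, which stood in this list and in the list of identity genes, had 0.348 to 1.49 TPM in wildtype and 4.10 to 10.1 TPM in dKO samples (log2 2.19, SE 0.12, adjusted p = 9.95e-10, limma). Dcstamp, also needed for fusion, was higher (log2 0.78), Nfatc1, the master factor of osteoclasts, was higher (log2 0.44) and Gpnmb, a lysosomal glycoprotein, was lower (log2 -0.93). Among 19 partner factors, 5 were higher and 2 lower, with a median of -0.01. Fos (log2 0.98), Jund (log2 0.52) and Fosl2 (log2 0.42), subunits of AP-1, and the deacetylase Hdac2 (log2 0.22) were higher, and Jun, another AP-1 subunit, was lower (log2 -0.61).

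Averaged over treatments, no tested gene in the marker lists of other cell types was higher in dKO cells by the test, against 13.1% of all genes. Ocstamp, Dcstamp, Nfatc1 and Csf3r, which were higher, were not in these marker lists. Of the listed markers, Lck of the T cell list was lower (log2 -0.64, SE 0.21, adjusted p = 0.0361, limma). Of the other 6 lineages, 0 markers passed the test in limma and 0 had an unadjusted p below 0.05 in that comparison. Few were tested: 2 of 7 each for T and B cells, 1 of 9 for neutrophils and 4 of 7 for dendritic cells. For erythroid cells 3 of 7 were tested, for mast cells and melanocytes 1 of 7 and for fibroblasts 1 of 6. Most had TPM near 0, so a lack of calls says little about other lineages. Summed macrophage markers were 2602 to 2675 TPM in wildtype and 2248 to 2333 TPM in dKO cells under vehicle, and with MTOB they were 3154 to 3296 TPM in wildtype and 2282 to 2586 TPM in dKO cells. With 4-Cl-HIPP they were 2487 to 2554 TPM in wildtype and 2129 to 2231 TPM in dKO cells. The sums were lower in dKO cells within each treatment, as was Irf8, whereas in dKO cells the sums with MTOB overlapped those of vehicle and Irf8 did not. Abundant markers weigh most in such sums, so they are no common level of the markers. Cd14 alone had medians of 462 TPM in wildtype and 145 TPM in dKO samples, and 3 of the 9 markers were higher in dKO cells. The part of the sums in the result for Irf8 was not tested.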

How the data were processed

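Polyadenylated RNA of 18 J774.1 samples, 3 per genotype and treatment, was sequenced from unstranded TruSeq libraries; the study's methods also name rRNA depletion. According to the methods, the authors quantified transcripts with Salmon 1.9.0 on GRCm39 with GC correction and summarised them per gene. The deposited table gives TPM per sample, computed by the authors, for 18204 genes. Beside it stands another signal, the normalized count averaged over samples, which the authors obtained with DESeq2 1.44.0. The log2 fold changes and adjusted p-values that the authors deposited for the inhibitors were not used. TPM keep no depth, so no counting interval is given.

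Here, log2(TPM + 1) of the 16383 genes whose averaged normalized count exceeded the 10th percentile (0.222) was fitted with 6 group means over all 18 samples (limma 3.58.1, R 4.3.3), with the variance moderated along the log2 of that count and Benjamini-Hochberg adjustment over all genes. The 6 groups gave dKO against wildtype, each inhibitor against vehicle and the differences of effects. The fit was tested on simulated data with the same dispersion for every gene and changes only in genes of higher counts. This does not cover genes as low as Cebpa. Members and lists were chosen with earlier results of these data known. Named genes were all members, Ctbp1 and Ctbp2, up to 5 genes per list with the smallest p-value over all treatments among those that passed, the 2 genes most like each member, and markers. Lists were other macrophage and myeloid factors, macrophage identity genes, MITF and TFEC target and osteoclast genes, partner factors, and markers of 8 cell types. Alternatives were pseudocounts of 0.1 and 5, other filters and scalings, no variance trend, only the compared groups, a replicate block and leaving out single samples. Figures were drawn with matplotlib 3.10.9.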

Additional observations from a re-analysis of the deposited data

How the results depend on the processing

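The 4 genotype calls (Bhlhe40, Mitf, Irf8 and Cebpa) held under vehicle, under MTOB and over all treatments in every alternative run, except that Cebpa could not be tested with a mean of at least 1 TPM, and no member that passed changed direction. Counts of differentially expressed members depended on the pseudocount, by construction of the fold. With a pseudocount of 5 they were 1 of 7 for dKO against wildtype under vehicle, 1 over all treatments, 1 for MTOB in wildtype and 0 for MTOB in dKO cells, and with 0.1 they were 2 under 4-Cl-HIPP. MTOB in dKO cells gave 2 under median-of-ratios and under quantile scaling. For dKO against wildtype under vehicle, the count was 2 under quantile scaling. It was also 2 without wildtype vehicle replicate 2 and without wildtype vehicle replicate 3. In fits of the compared groups alone, which have fewer samples, 2 members passed for MTOB in wildtype (1 differentially expressed), 2 for MTOB in dKO and 0 for 4-Cl-HIPP in wildtype cells. Leaving out single samples gave 1 to 2 differentially expressed members for dKO against wildtype under 4-Cl-HIPP, 1 to 3 for MTOB in wildtype, 0 to 1 for MTOB in dKO, and 0 to 1 passing for 4-Cl-HIPP in wildtype cells. The lower or higher ends came without wildtype 4-Cl-HIPP replicate 1 or dKO 4-Cl-HIPP replicate 3, wildtype vehicle replicate 3, dKO vehicle replicate 3 or dKO MTOB replicate 1, and wildtype vehicle replicate 3 or wildtype 4-Cl-HIPP replicate 2, in that order. The cause was not tested. Of the single-member results, 576 leaving out a sample and 597 under other alternatives kept their call, 5 and 9 newly passed and 7 and 7 no longer passed.

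No clear pairing by replicate number was seen across all tested genes. Deviations of same-numbered samples from their group means correlated at r = -0.0866 to 0.0895, and 8 of 18 samples correlated best with their own number. A pairing that affects only some genes would not show in these values. With the replicate block, 1 member (Mitf, adjusted p = 0.0434, limma) passed for 4-Cl-HIPP in dKO cells in place of 0, Runx1 passed over all treatments (adjusted p = 0.0411) and Spi1 passed for MTOB in wildtype cells (adjusted p = 0.0428).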
